A study of Mus musculus with 8 samples.

Results

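Interferon-stimulated effector genes are the genes whose products carry out the antiviral and antimicrobial work of an interferon response. A list of 41 of them was followed by symbol across 8 arrays, out of 21528 genes tested in all. Of the 41, 38 had a probe matched by accession, and 30 were tested, because at least 1 group had signal well above background on both of its arrays. Cmpk2, Gbp2, Gbp7, Ifi205, Iigp1, Oasl2, Rsad2 and Trim30a were not well above background on any array, and Mx1, Mx2 and Ifi203 had no matched probe and were not analysed here.

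Transcript levels were measured in J774.1, a mouse macrophage-like cell line from the BALB/c strain, on 1-colour Agilent arrays. There were 2 arrays per group, biological replicates by the submitters' design text, for 4 groups: isorhamnetin at 10 µM, tamarixetin at 10 µM, Torin1 at 1 µM, each for 6 h, and control cells. Isorhamnetin and tamarixetin are isomeric methyl ethers of the flavonol quercetin, with the methyl group on adjacent positions of the catechol ring, and Torin1 is an inhibitor of the kinase mTOR. The sources used here do not say whether control cells received vehicle, all groups share 1 cell line, and no group is labelled as infected or given interferon.

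Type I interferons bind a receptor on the cell surface, whose JAK kinases start the signal inside the cell. A complex that holds STAT2 and IRF9 then binds the interferon-stimulated response element (ISRE), while the response to interferon gamma acts mainly through the gamma-activated sequence (GAS). Macrophages keep many of the induced transcripts at a low standing level without infection, and their products detect, modify or degrade foreign nucleic acid, tag proteins with ISG15, or act as GTPases at the membranes around intracellular microbes.

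Promoter sequence was read from RefSeq (GRCm38.p6) to show which of these elements lie next to the genes that changed most. The 6 promoters below belong to members with the largest called differences that had an entry. Oas3 was chosen by its isorhamnetin difference and the others by their Torin1 differences. Rtp4, Ifi204 and Parp14, all called lower with isorhamnetin, had no entry. Each promoter is given as the 250 bases before the start site, 5′ to 3′ on the strand of the gene. Capitals mark every match to the ISRE letters GAAANNGAAA or its complement TTTCNNTTTC, or to the GAS letters TTCNNNGAA, which read the same on both strands. Isg15 lies at chr4:156200819-156201068 on the minus strand, Igtp at chr11:58199306-58199555 on the plus strand and Oas3 at chr5:120777660-120777909 on the minus strand. Isg20 lies at chr7:78913174-78913423, Ifi47 at chr11:49076337-49076586 and Xaf1 at chr11:72301379-72301628, all on the plus strand.
Isg15: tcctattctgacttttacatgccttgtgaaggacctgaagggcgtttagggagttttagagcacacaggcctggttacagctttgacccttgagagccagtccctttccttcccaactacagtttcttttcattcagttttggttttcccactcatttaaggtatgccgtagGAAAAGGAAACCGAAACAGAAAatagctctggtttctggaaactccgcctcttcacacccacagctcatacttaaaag
Igtp: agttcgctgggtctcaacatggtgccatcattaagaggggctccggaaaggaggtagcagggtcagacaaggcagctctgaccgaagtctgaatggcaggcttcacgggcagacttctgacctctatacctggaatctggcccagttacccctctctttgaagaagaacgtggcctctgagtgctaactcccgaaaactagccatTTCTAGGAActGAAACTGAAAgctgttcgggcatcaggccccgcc
Oas3: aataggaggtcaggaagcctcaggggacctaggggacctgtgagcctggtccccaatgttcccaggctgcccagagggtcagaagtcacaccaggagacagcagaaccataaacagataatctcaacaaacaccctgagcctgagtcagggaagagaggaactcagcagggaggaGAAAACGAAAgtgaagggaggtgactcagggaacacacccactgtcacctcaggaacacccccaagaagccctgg
Isg20: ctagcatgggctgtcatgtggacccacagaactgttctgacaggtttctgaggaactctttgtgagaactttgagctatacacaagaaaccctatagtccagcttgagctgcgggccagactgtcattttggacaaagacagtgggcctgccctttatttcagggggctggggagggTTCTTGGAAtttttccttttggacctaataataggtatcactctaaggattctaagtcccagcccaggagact
Ifi47: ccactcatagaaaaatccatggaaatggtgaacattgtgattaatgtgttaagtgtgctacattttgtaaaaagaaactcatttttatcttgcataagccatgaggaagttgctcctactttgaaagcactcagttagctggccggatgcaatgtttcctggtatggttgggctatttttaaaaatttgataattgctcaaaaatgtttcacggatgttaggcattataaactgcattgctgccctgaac
Xaf1: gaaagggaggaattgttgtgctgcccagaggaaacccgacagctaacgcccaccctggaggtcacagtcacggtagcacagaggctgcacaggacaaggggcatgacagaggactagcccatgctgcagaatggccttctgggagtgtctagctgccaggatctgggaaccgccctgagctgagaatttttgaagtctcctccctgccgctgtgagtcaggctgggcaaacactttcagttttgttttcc

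In Isg15 the capitals hold 3 overlapping ISRE matches, which begin 78, 72 and 66 bases before the start site. Igtp has a GAS match 45 bases before the start and an ISRE match 34 bases before it. Oas3 has an ISRE match 75 bases before the start, and Isg20 has a GAS match 73 bases before the first of its 3 listed starts. These letters do not occur in the windows of Ifi47 and Xaf1. Of the 41 members, 32 had a promoter window of 300 bases (250 before and 50 after the start), and some had several, 41 windows in all. An ISRE match was present in 18 of the 41 windows (43.9%), against 1131 of all 32851 windows (3.44%). A GAS match was present in 10 of the 41 windows (24.4%), against 2726 of all windows (8.30%). The list was drawn from genes known to respond to interferon, so these shares describe the list and say nothing of binding in these cells.

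**Figure D1:**
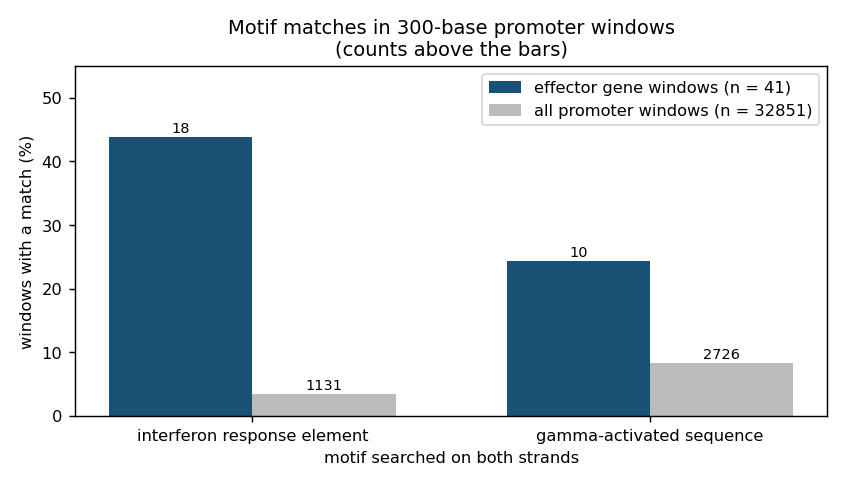
Share of promoter windows of 300 bases (y axis, %) with a match to the ISRE or GAS letters on either strand (x axis), for the 41 windows of the effector genes and for all 32851 RefSeq windows, with counts above the bars. ISRE matches were present in 43.9% of the effector gene windows and 3.44% of all windows, and GAS matches in 24.4% and 8.30%.

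Levels are given as log2 of the processed signal after subtraction of the log2 75th percentile of the same array, so 0 is the 75th percentile and each unit is a doubling of signal. A level on this scale serves to compare arrays for 1 gene and not genes with each other. Differences are in log2 units with the SE of the limma fit over all 21528 genes, and a gene was called at an adjusted p under 0.05. The median level of the 30 tested members was 0.31 and 0.30 on the isorhamnetin arrays, 0.85 and 0.77 on the tamarixetin arrays, 0.49 and 0.48 on the Torin1 arrays, and 0.93 and 1.04 on the control arrays. The medians of the treated arrays all lay below both control medians. In a bulk RNA sample, fewer cells with a transcript and less of it per cell cannot be told apart.

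Between 43.9% and 54.1% of spots were well above background on an array, and replicate arrays correlated at 0.992 to 0.997 across the genes tested. The number of arrays limits the precision: no exact test of 2 arrays against 2 can go below a two-sided p of 0.333. All arrays lay on 1 slide, with isorhamnetin and control in its first row and tamarixetin and Torin1 in its second, so the position on the slide and the group cannot be told apart. Of the macrophage markers, 9 of 9 were well above background on all 8 arrays, while the 3 fibroblast and the 3 epithelial markers were on none. Of 4 T cell markers, Cd3e and Lck were above background on all 8 arrays and the other 2 on none, and of 4 plasmacytoid dendritic cell markers all but Ccr9 were on all 8, among them Bst2, itself a member here. The part of other cells in the results was not tested.

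**Figure D2:**
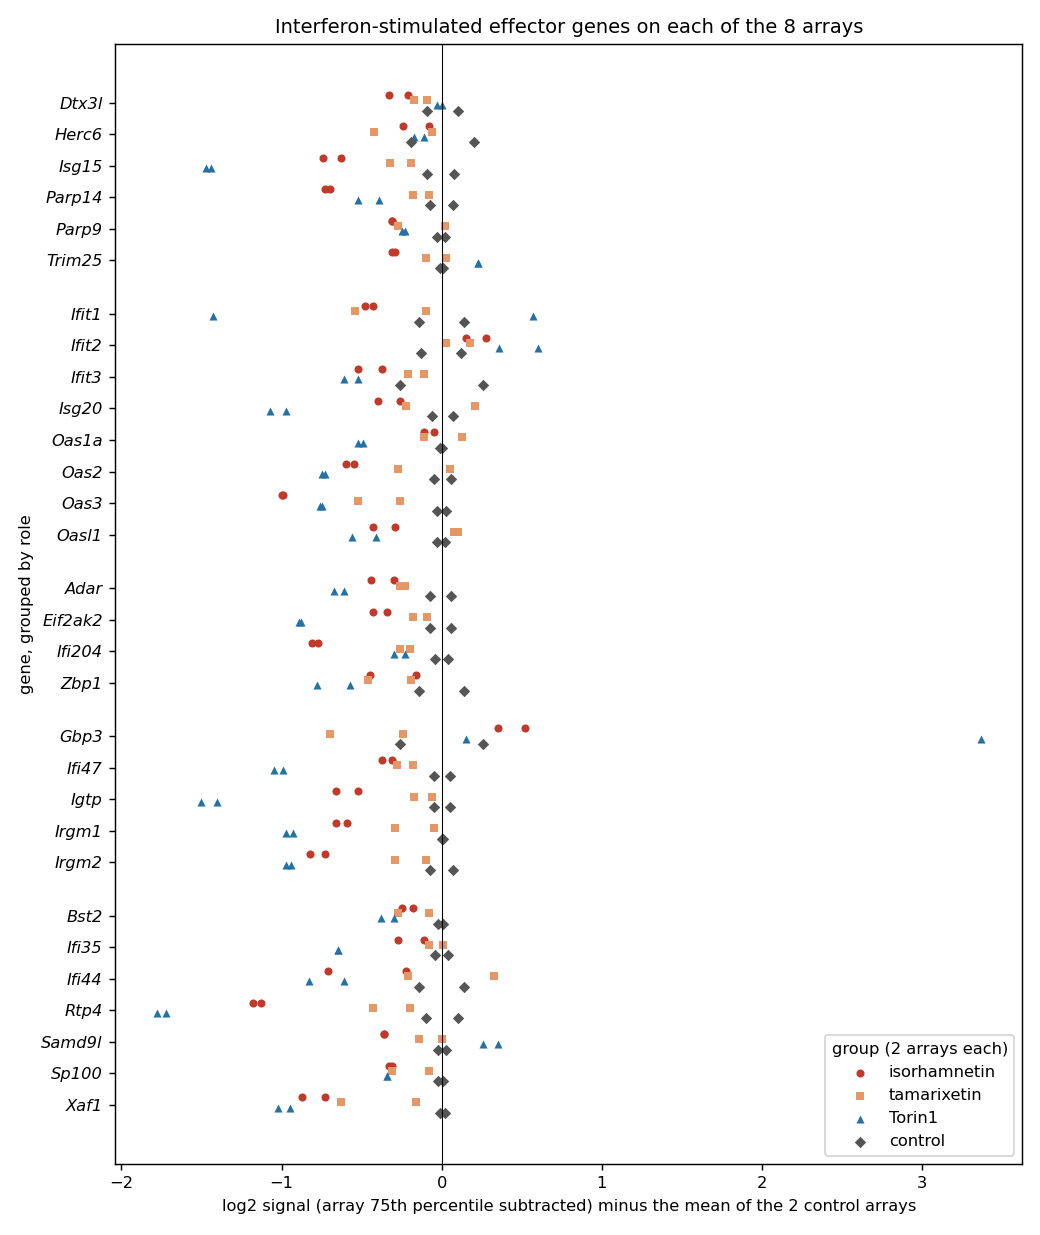
Level of each of the 30 tested effector genes on each array (points, 2 per group), as log2 signal after subtraction of the array's 75th percentile, minus the mean of the 2 control arrays (x axis), with genes grouped by role (y axis). Most isorhamnetin and Torin1 points lie left of the control points, while Trim25, Ifit2 and Samd9l have Torin1 points to the right, and 1 of the Torin1 points of Gbp3 lies more than 3 units above the control mean.

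With isorhamnetin 5 of the 30 tested effector genes fell and none rose. The 5 were Rtp4, a receptor-transporting chaperone, Oas3, an oligoadenylate synthetase, Ifi204, a DNA-binding protein of the HIN-200 family, Irgm2, an immunity-related GTPase, and Parp14, an ADP-ribosyltransferase. Rtp4 fell to 44.9% of the control level, and Ifi204, Irgm2 and Parp14 to between 57.9% and 60.9%. The 5 are 16.7% of the tested members, while 0.125% of all genes tested were called lower and 0.418% higher in this comparison. Over the 30 members the median difference was -0.37, against 0.00 over all genes. Of the members, 28 had a negative difference and 22 an unadjusted p under 0.05 (limma). Over all 21528 genes these numbers were 10978 and 3307.

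Rtp4 read 1.74 and 1.69 with isorhamnetin and 2.77 and 2.97 in control cells. It fell by 1.16 ± 0.10 (SE; limma, adjusted p = 0.0201). Oas3 read -1.43 and -1.44 with isorhamnetin, against -0.47 and -0.41 in control cells. The isorhamnetin arrays nearly coincided, and the gene fell by 1.00 ± 0.09 (limma, adjusted p = 0.0219). Ifi204 read 0.44 and 0.40 with isorhamnetin and 1.17 and 1.25 in control cells, and it fell by 0.79 ± 0.06 (limma, adjusted p = 0.0152). Irgm2 read -0.70 and -0.79 with isorhamnetin and -0.04 and 0.10 in control cells, a fall by 0.77 ± 0.09 (limma, adjusted p = 0.041). For these genes the distance between the groups was several times that between replicate arrays. Parp14 read 0.04 and 0.07 with isorhamnetin and 0.70 and 0.84 in control cells, and it fell by 0.71 ± 0.08 (limma, adjusted p = 0.0372).

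**Figure D3:**
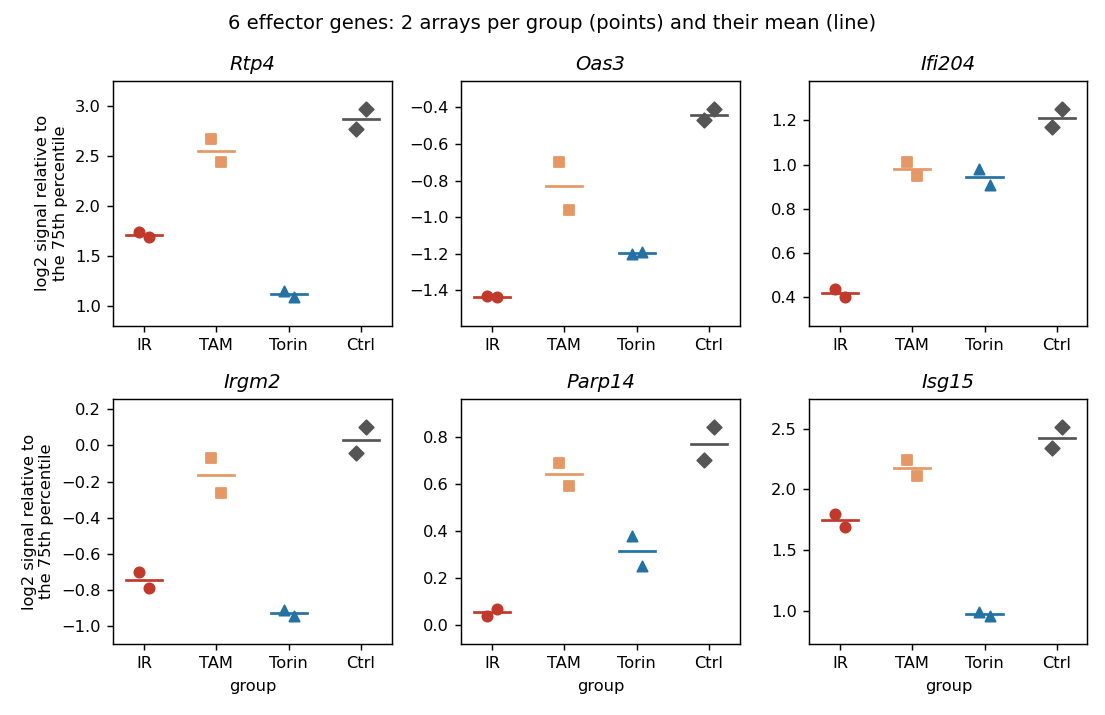
Level of 6 effector genes (y axis, log2 signal after subtraction of the array's 75th percentile, a separate scale for each gene) on the 2 arrays of each group (points) with the group mean (line). In all 6 the isorhamnetin and Torin1 points lie below both control points, and the isorhamnetin points also lie below both tamarixetin points.

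Among members that did not pass, Xaf1 had the largest difference with isorhamnetin, -0.81 ± 0.16 (limma, adjusted p = 0.109). Isg15, the ubiquitin-like modifier, differed by -0.68 ± 0.09 (limma, adjusted p = 0.0519) and Irgm1 by -0.63 ± 0.09 (limma, adjusted p = 0.0633). In 27 of the 30 members both isorhamnetin arrays lay below both control arrays, which was so for 24.0% of all genes, and in Ifit2 both lay above, as in 25.7% of all genes. Gbp3 also lay above control, but it was tested only because its isorhamnetin arrays were well above background, and its control arrays were not. None of the 5 genes was called after scaling by array medians, in a fit of these 2 groups alone, or when either isorhamnetin, either control or either Torin1 array was left out. Without either tamarixetin array Rtp4, Oas3 and Ifi204 were called while Irgm2 and Parp14 were not.

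**Figure D4:**
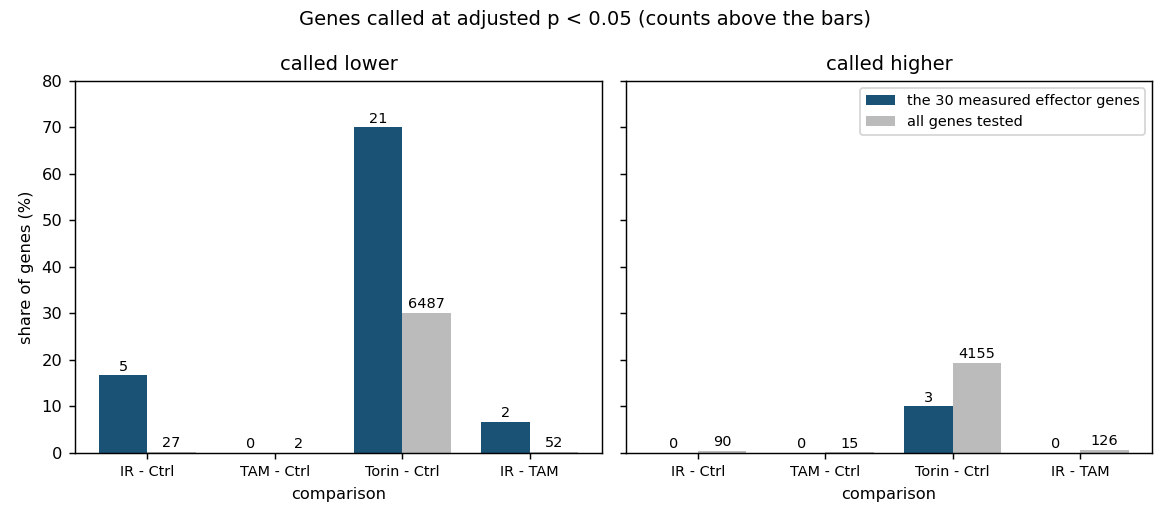
Share of genes (y axis, %) called lower (left panel) or higher (right panel) at an adjusted p under 0.05 in the 4 comparisons (x axis), for the 30 tested effector genes and for all 21528 genes tested, with counts above the bars. Of the effector genes, 5 were lower with isorhamnetin, 0 with tamarixetin and 21 with Torin1, each against control, and 2 were lower with isorhamnetin than with tamarixetin.

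Tamarixetin, at the same dose and time, gave no call among the 30 members in either direction (limma), with 7 at an unadjusted p under 0.05. Over all 21528 genes 0.00929% were called lower and 0.0697% higher, and 3072 had an unadjusted p under 0.05 (limma). The median difference of the members was -0.17, against -0.05 over all genes, and their differences lay between -0.47 and 0.11. Both tamarixetin arrays lay below both control arrays in 15 of the 30, where 33.0% of all genes did so, and above both in Oasl1 alone (13.9% of all genes). Among members measured in both groups the largest differences were those of Oas3, -0.40 ± 0.09 (limma, adjusted p = 0.2), and Xaf1, -0.40 ± 0.16 (limma, adjusted p = 0.342). Gbp3, which set the lower end of the range, was not well above background on any tamarixetin or control array, so its difference is one between background readings. Oas3 read -0.70 and -0.96 with tamarixetin and Xaf1 0.08 and -0.39, in both genes below the 2 control arrays. Rtp4 read 2.67 and 2.44 with tamarixetin, also below both control arrays, a difference of -0.32 ± 0.10 (limma, adjusted p = 0.287).

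The isomers were compared directly for the same 30 genes, 1 pair of compounds at matched dose and time, with p-values adjusted over all genes tested. Rtp4 and Ifi204 were lower with isorhamnetin than with tamarixetin, and no member was higher. Of all genes 0.242% were called lower and 0.585% higher in this comparison. Rtp4 read 1.74 and 1.69 with isorhamnetin and 2.67 and 2.44 with tamarixetin, and it was lower by a difference of -0.84 ± 0.10 (95% interval -1.10 to -0.58; limma, adjusted p = 0.0388). Ifi204 read 0.44 and 0.40 with isorhamnetin and 1.01 and 0.95 with tamarixetin, a difference of -0.56 ± 0.06 (95% interval -0.71 to -0.41; limma, adjusted p = 0.0291). In both genes the arrays of the isomers were well apart.

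Parp14 (-0.58 ± 0.08, 95% interval -0.78 to -0.39; limma, adjusted p = 0.0505) and Oas3 (-0.60 ± 0.09, interval -0.83 to -0.38; limma, adjusted p = 0.0654) missed the threshold. So did Irgm2 (-0.58 ± 0.09, interval -0.80 to -0.36; limma, adjusted p = 0.0682). Bst2, which tethers budding virus particles to the cell, differed by -0.04 (interval -0.23 to 0.16), and Zbp1, a sensor of Z-form nucleic acid, by 0.01 (interval -0.39 to 0.42). For Oas1a the difference was -0.09 (interval -0.30 to 0.12). Gbp3 was not well above background on either tamarixetin array, and no size is given for it. The median over the 30 members was -0.27, against 0.05 over all genes, and in 23 of the 30 both isorhamnetin arrays lay below both tamarixetin arrays, where 11.8% of all genes did so. Both lay above in 30.6% of all genes and, of the members, only in Gbp3, which entered the test through its isorhamnetin arrays. Ifi204 was not called when any of the 8 arrays was left out, and Rtp4 stayed called only without the second tamarixetin array. Neither was called after scaling by array medians or in a fit of the 2 groups alone.

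**Figure D5:**
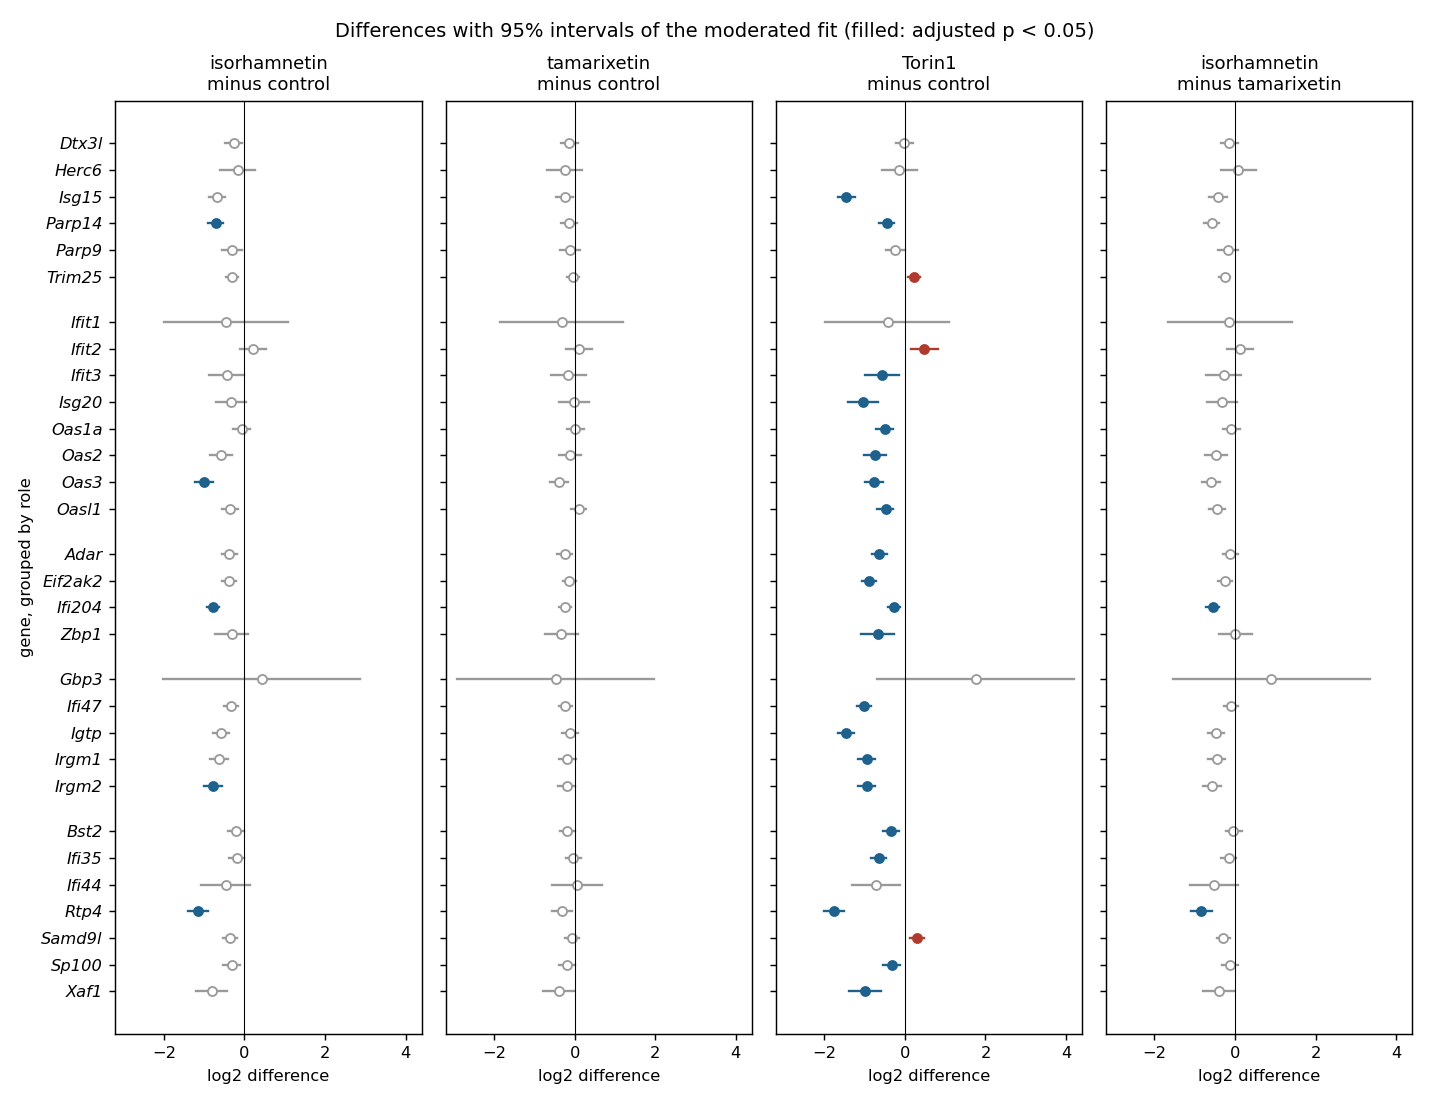
Log2 difference (x axis) of the 30 tested effector genes (y axis, grouped by role) in the 4 comparisons, with 95% intervals of the limma fit as bars and filled points where the adjusted p was under 0.05. Rtp4 has the lowest difference in the isorhamnetin, Torin1 and isomer panels, at -1.16, -1.75 and -0.84, and Gbp3 has the widest intervals.

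With Torin1 most of the tested members changed: 21 of the 30 fell and 3 rose, in a comparison where 30.1% of all genes were called lower and 19.3% higher. The 21 are 70.0% of the tested members. The median difference was -0.60, against -0.10 over all genes, and in 23 of the 30 both Torin1 arrays lay below both control arrays, as in 47.8% of all genes. In 3 of the 30 both lay above, as in 31.5% of all genes. The comparisons of the 3 compounds with control use the same 2 control arrays, so their values for a gene are set side by side and were not correlated.

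In the ISG15 system and among the ubiquitin and ADP-ribose enzymes, 2 of 6 tested members fell with Torin1 (33.3%) and 1 rose (16.7%), shares close to those of all genes, 30.1% and 19.3%. Isg15, which is attached to proteins in the manner of ubiquitin, read 1.80 and 1.69 with isorhamnetin, 2.24 and 2.11 with tamarixetin, 0.99 and 0.96 with Torin1, and 2.34 and 2.51 in control cells. With Torin1 it fell by 1.45 ± 0.09 to 36.5% of the control level (limma, adjusted p = 0.000211). Parp14, which transfers single ADP-ribose units, read 0.69 and 0.59 with tamarixetin and 0.38 and 0.25 with Torin1, and with Torin1 it fell by 0.45 ± 0.08 (limma, adjusted p = 0.00602). Trim25, the ubiquitin ligase that acts on the RNA sensor RIG-I, stood on the other side. It read 5.66 and 5.64 with isorhamnetin, 5.98 and 5.85 with tamarixetin, 6.18 and 6.18 with Torin1, and 5.94 and 5.96 in control cells, and with Torin1 it rose by 0.23 ± 0.06 (limma, adjusted p = 0.0237). A second Trim25 probe had a Torin1 difference of 0.76. Parp9 and Dtx3l, which act as a complex, differed by -0.24 ± 0.10 (limma, adjusted p = 0.0986) and -0.02 ± 0.08. Herc6, the main ISG15 ligase of the mouse, differed by -0.14 ± 0.17.

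Parp9 and Herc6 were among the 6 tested members with no call in any comparison, with Dtx3l, Ifit1, Ifi44 and Gbp3. Parp9 read 1.35 and 1.35 with isorhamnetin, 1.68 and 1.39 with tamarixetin, 1.41 and 1.43 with Torin1, and 1.68 and 1.63 in control cells. Its isorhamnetin and Torin1 arrays lay below both control arrays, by less than the fit could call. Herc6 arrays of all groups lay between -2.85 and -2.23.

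Of the RNA-binding, oligoadenylate synthetase and RNA-degrading members, 6 of 8 tested fell with Torin1 and 1 rose. Of all genes 30.1% fell and 19.3% rose. Isg20, an RNA exonuclease, read -0.79 and -0.93 with isorhamnetin, -0.32 and -0.75 with tamarixetin, -1.50 and -1.60 with Torin1, and -0.46 and -0.59 in control cells. With Torin1 it fell by 1.03 ± 0.15, to 49.1% of the control level (limma, adjusted p = 0.0031), and its second probe differed by -1.51. The synthetases make the oligoadenylates that activate RNase L. Oas3 read -1.20 and -1.19 with Torin1, where it fell by 0.76 ± 0.09 (limma, adjusted p = 0.00163). Oas2 read 1.77 and 1.72 with isorhamnetin, 2.37 and 2.05 with tamarixetin, 1.59 and 1.57 with Torin1, and 2.27 and 2.38 in control cells, and it fell by 0.74 ± 0.11 with Torin1 (limma, adjusted p = 0.00352). In Oas2 the isorhamnetin and Torin1 arrays both lay below control, the tamarixetin arrays overlapped it, and the isorhamnetin difference of -0.58 ± 0.11 did not pass (limma, adjusted p = 0.109).

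Oas1a read 5.73 and 5.67 with isorhamnetin, 5.91 and 5.67 with tamarixetin, 5.29 and 5.26 with Torin1, and 5.77 and 5.78 in control cells, and it fell by 0.50 ± 0.09 with Torin1 (limma, adjusted p = 0.0056). The mouse holds several near-identical copies of this gene, as it does of the HIN-200 genes, and cross-hybridisation between copies was not tested. Oasl1, which in the mouse restrains translation of Irf7, read 3.58 and 3.44 with isorhamnetin, 3.97 and 3.95 with tamarixetin, 3.46 and 3.31 with Torin1, and 3.84 and 3.89 in control cells. It fell by 0.48 ± 0.08 with Torin1 (limma, adjusted p = 0.00463), and its second probe differed by -0.62. Both tamarixetin arrays lay above control at this probe, while at the second they overlapped control.

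The Ifit genes encode tetratricopeptide proteins that act together, with Ifit1 binding the end of foreign RNA, and with Torin1 Ifit3 fell while Ifit2 rose. Ifit3 read -3.30 and -3.15 with isorhamnetin, -2.89 and -2.99 with tamarixetin, -3.30 and -3.39 with Torin1, and -3.04 and -2.52 in control cells, and it fell by 0.57 ± 0.17 with Torin1 (limma, adjusted p = 0.038). The control arrays of Ifit3 lay farther apart than those of any treated group, and 1 of its 2 Torin1 arrays was not well above background. Ifit2 read -1.83 and -1.70 with isorhamnetin, -1.80 and -1.95 with tamarixetin, -1.62 and -1.38 with Torin1, and -1.86 and -2.11 in control cells, and with Torin1 it rose by 0.48 ± 0.13 (limma, adjusted p = 0.0261). Ifit1 read -2.96 and -3.01 with isorhamnetin, -3.07 and -2.63 with tamarixetin, -1.96 and -3.96 with Torin1, and -2.39 and -2.67 in control cells. The Torin1 arrays of Ifit1 lay on either side of all other arrays, and its difference of -0.43 ± 0.62 did not pass (limma, adjusted p = 0.59).

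Among members that sense nucleic acid or act on double-stranded RNA, 4 of 4 tested fell with Torin1, against 30.1% of all genes. Eif2ak2, the kinase PKR that halts translation on double-stranded RNA, read 2.32 and 2.23 with isorhamnetin, 2.57 and 2.48 with tamarixetin, 1.77 and 1.78 with Torin1, and 2.59 and 2.72 in control cells. It fell by 0.88 ± 0.07 with Torin1, to 54.2% of the control level (limma, adjusted p = 0.000462). Adar, which edits adenosine to inosine in double-stranded RNA, read 1.03 and 1.17 with isorhamnetin, 1.24 and 1.21 with tamarixetin, 0.80 and 0.86 with Torin1, and 1.40 and 1.53 in control cells, and fell by 0.64 ± 0.07 with Torin1 (limma, adjusted p = 0.00148). At this probe all treated arrays of Adar lay below both control arrays. Its second probe had a Torin1 difference of -0.57. There the first tamarixetin array read 0.73, above the control arrays at 0.70 and 0.65. Zbp1 read -1.60 and -1.89 with isorhamnetin, -1.63 and -1.90 with tamarixetin, -2.01 and -2.22 with Torin1, and -1.58 and -1.30 in control cells, and fell by 0.67 ± 0.16 with Torin1 (limma, adjusted p = 0.0191). Ifi204 read 0.98 and 0.91 with Torin1, where it fell by 0.26 ± 0.06 (limma, adjusted p = 0.0146), beside its isorhamnetin difference of -0.79.

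The immunity-related GTPases mark or guard the vacuoles that hold intracellular microbes. With the guanylate-binding protein gene Gbp3 they made 5 tested GTPase genes, of which 4 fell with Torin1, against 30.1% of all genes. Igtp read -0.12 and -0.26 with isorhamnetin, 0.34 and 0.23 with tamarixetin, -1.0 and -1.10 with Torin1, and 0.35 and 0.45 in control cells, and it fell by 1.45 ± 0.08 to 36.6% of the control level with Torin1 (limma, adjusted p = 0.000187). Its isorhamnetin arrays lay between those of Torin1 and control, at a difference of -0.59 ± 0.08 (limma, adjusted p = 0.0629). Ifi47 read 1.07 and 1.01 with isorhamnetin, 1.20 and 1.1 with tamarixetin, 0.39 and 0.33 with Torin1, and 1.33 and 1.43 in control cells, and it fell by 1.02 ± 0.07 with Torin1 (limma, adjusted p = 0.000284). Irgm1, a regulator of the other GTPases, read 0.90 and 0.97 with isorhamnetin, 1.51 and 1.27 with tamarixetin, 0.59 and 0.63 with Torin1, and 1.56 and 1.57 in control cells, and it fell by 0.95 ± 0.09 with Torin1 (limma, adjusted p = 0.000737). Its other 2 probes had Torin1 differences of -1.12 and -0.89. Irgm2 read -0.07 and -0.26 with tamarixetin and -0.91 and -0.94 with Torin1, where it fell by 0.95 ± 0.09 (limma, adjusted p = 0.000743).

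Gbp3 read -3.90 and -3.73 with isorhamnetin, -4.95 and -4.49 with tamarixetin, -0.88 and -4.10 with Torin1, and -3.99 and -4.51 in control cells. A single Torin1 array stood far above all others, and no control or tamarixetin array was well above background. The other Torin1 array was not well above background either and lay between the control readings, so the fitted Torin1 difference, which did not pass (1.76 ± 0.98; limma, adjusted p = 0.189), rests on 1 array.

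Of the remaining nucleotide, membrane and other effectors, 5 of 7 tested fell with Torin1 and 1 rose, against 30.1% and 19.3% of all genes. Rtp4 had the lowest Torin1 difference of all 30 members: it read 1.15 and 1.09 with Torin1, below every other array, and fell by 1.75 ± 0.10 to 29.7% of the control level (limma, adjusted p = 0.000211). Xaf1, a partner of the apoptosis inhibitor XIAP, read -0.49 and -0.63 with isorhamnetin, 0.08 and -0.39 with tamarixetin, -0.78 and -0.71 with Torin1, and 0.23 and 0.26 in control cells, and with Torin1 it fell by 0.99 ± 0.16 (limma, adjusted p = 0.00426). The tamarixetin arrays of Xaf1 lay far apart from each other. Ifi35, a partner of Nmi, read 4.09 and 3.93 with isorhamnetin, 4.21 and 4.12 with tamarixetin, 3.55 and 3.55 with Torin1, and 4.16 and 4.24 in control cells, and with Torin1 it fell by 0.65 ± 0.07 (limma, adjusted p = 0.00144). Its second probe differed by -0.64.

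Bst2 read 3.93 and 4.0 with isorhamnetin, 4.10 and 3.91 with tamarixetin, 3.80 and 3.88 with Torin1, and 4.16 and 4.19 in control cells, and it fell by 0.34 ± 0.08 with Torin1 (limma, adjusted p = 0.017). Sp100, a nuclear body protein, read -0.10 and -0.12 with isorhamnetin, 0.13 and -0.10 with tamarixetin, -0.13 and -0.13 with Torin1, and 0.22 and 0.19 in control cells, and it fell by 0.33 ± 0.08 with Torin1 (limma, adjusted p = 0.0194). In these 2 genes all treated arrays lay below both control arrays. Samd9l, which restrains growth and viral replication, read 0.19 and 0.19 with isorhamnetin, 0.55 and 0.41 with tamarixetin, 0.90 and 0.81 with Torin1, and 0.58 and 0.53 in control cells. With Torin1 it rose by 0.30 ± 0.07 (limma, adjusted p = 0.0153), while its isorhamnetin arrays lay below control at a difference of -0.36 ± 0.07 (limma, adjusted p = 0.106). Ifi44 differed by -0.71 ± 0.24 with Torin1 (limma, adjusted p = 0.056), and its Torin1 and tamarixetin arrays were not well above background.

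The 3 higher calls with Torin1 were lost when the arrays were scaled to their medians, where the median of all genes lay at -0.27 in place of -0.10, and also without the second control array. Of the 21 lower calls, that of Ifit3 was called in 5 of 17 alternatives, arrays left out included. Those of Bst2, Sp100, Ifi204 and Zbp1 were called in 12 to 15 of 18, and the other 16 were called in every alternative and with any array left out.

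The genes that start and carry the interferon signal were counted from a separate list of 35 sensors, interferons, receptors and signalling factors, of which 31 were tested. With isorhamnetin 2 of these fell (6.5%) and none rose, where 0.125% of all genes fell and 0.418% rose. They were Usp18, which takes ISG15 off proteins and silences the interferon receptor, and Ddx58, the RNA sensor RIG-I. Usp18 read -0.30 and -0.12 with isorhamnetin, 0.79 and 0.61 with tamarixetin, 0.89 and 0.85 with Torin1, and 1.12 and 1.31 in control cells. With isorhamnetin it fell by 1.43 ± 0.11 (limma, adjusted p = 0.0152), and it was lower than with tamarixetin at a difference of -0.91 (limma, adjusted p = 0.0363). Ddx58 read 0.57 and 0.51 with isorhamnetin, 1.27 and 1.09 with tamarixetin, 0.32 and 0.26 with Torin1, and 1.47 and 1.60 in control cells. It fell by 1.00 ± 0.08 with isorhamnetin (limma, adjusted p = 0.0196) and was lower than with tamarixetin at -0.64 (limma, adjusted p = 0.0479). The isorhamnetin arrays of both genes lay below all control and tamarixetin arrays. With the replicate number as a block neither gene was called against control or against tamarixetin. Without the background filter neither was called against control. With the probes of a gene averaged, Ddx58 was not called against tamarixetin. Against control neither gene was called after median scaling, in a fit of the 2 groups alone, or without any 1 of the isorhamnetin, control or Torin1 arrays, with adjusted p-values up to 0.125 (limma). Against tamarixetin neither was called after median scaling or for the 2 groups alone, and with 1 array left out both were called only without the second tamarixetin array, with adjusted p-values up to 0.228 (limma).

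Among the factors that bind the ISRE, isorhamnetin differences were -0.44 for Irf9 (limma, adjusted p = 0.0625) and -0.13 for Stat2 (limma, adjusted p = 0.585). Irf7, which amplifies the response, had -0.67 (limma, adjusted p = 0.0886), and none of the 31 was called with tamarixetin. With Torin1 16 of the 31 fell (51.6%) and 6 rose (19.4%), where 30.1% of all genes fell and 19.3% rose. Among those that fell were Ddx58 (-1.25), Irf7 (-0.90), Irf9 (-0.58), Usp18 (-0.34) and Stat2 (-0.31), at limma adjusted p-values between 0.000301 and 0.0447. The receptor subunits Ifnar1 (0.53) and Ifnar2 (0.57) rose with Torin1 at limma adjusted p-values of 0.00773 and 0.00149. Of the interferon gamma receptor subunits, Ifngr1 fell (-0.27; limma, adjusted p = 0.0121) and Ifngr2 was not called (0.16; limma, adjusted p = 0.0911). Transcripts of the interferon genes Ifnb1 and Ifnk were well above background on 0 of the 8 arrays, that of Ifna2 on 1 and that of Ifna4 on 2. Those 2 were the isorhamnetin arrays, and only through them was Ifna4 among the 31 tested. It was not called in any comparison.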

How the data were processed

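The arrays carried Cy3 alone. Values used here are processed intensities, which per the file headers had background subtracted and spatial trends removed on each array but no scaling between arrays. Per the submitters' processing notes the tool was Agilent Feature Extraction 10.7.1.1. The deposited table holds log2 values, which the authors centred on each probe's median: log2 signal minus the array's 75th percentile minus the probe median matched them within 0.01 for 100.0% of probes.

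Here 323 of 56605 probes were left out for outlier spots, spots of a probe were averaged, and the 27562 probes for which some group had both arrays well above background were kept. Symbols came by accession from RefSeq names (GRCm38.p6) for 32989 probes, and 23616 had none. The headers name build mm9, so no coordinate is taken from the files. The probe with the highest mean stood for a gene, which gave 21528 genes (12934 with a symbol). Log2 intensity minus the 75th percentile was read with data.table version 1.17.8 and fitted in limma 3.58.1 under R 4.3.3, 1 mean for each group, all 8 arrays together, which left 4 residual degrees of freedom. P-values were two-sided and Benjamini-Hochberg adjusted over all genes of a comparison. Alternatives were quantile normalization, median scaling, normexp background correction (offset 50), other filters and probe rules, the deposited values, a fit of 2 groups alone, trended and robust eBayes, a replicate block and each array left out. Slide and scan could not be blocks, with 1 of each.

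The members, the lists around them, the tests and the naming rule were chosen with earlier results of these data known. Members called in any comparison are given with all 8 array values, the others by their largest differences, and the lists around them by called genes and a fixed set of signalling factors. Of these, 1 signalling factor is not reported here. The part of that rule that ranks genes by level was not applied, since levels of different probes are not comparable.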

Additional observations from a re-analysis of the deposited data

How the results depend on the processing

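In isorhamnetin against control, members called lower, 5 as reported, numbered 8 with quantile normalization, 11 with the filter to signal above background on all 8 arrays and 16 with trended and robust eBayes, and 0 with median scaling, with no filter, in the fit of 2 groups alone and with the replicate block. Genes called in this comparison, 117 as reported, numbered 13 with median scaling, 6 with no filter, 376 with the stricter filter, 436 with trended eBayes, 4 with the block, and 0 for the 2 groups alone, where limma had 3123 at an unadjusted p under 0.05. The median of the members was -0.29 with normexp.

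For tamarixetin against control the 17 genes called became 9 with normexp, 88 with trended eBayes, 11 with the replicate block, 12526 with no filter, and 0 with the stricter filter (limma, 2635 at an unadjusted p under 0.05). Without a filter 38 members were tested, among them the 8 not well above background on any array. Of these 38, 1 was lower and 2 were higher. For Torin1 the median of the members was -0.44 with normexp, -0.78 with median scaling and -0.49 with no filter. Members called higher, 3 as reported, numbered 0 with median scaling. With no filter these 3 were not called, and 1 other member was called higher. Of the calls with Torin1, 61.0% were lower as reported and 77.2% with median scaling. That share was 11.8% as reported and 28.6% with quantile normalization for tamarixetin, and 29.2% and 42.5% with median scaling between the isomers.

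Between the isomers, members called lower, 2 as reported, numbered 12 with no filter, 5 with the stricter filter and 9 with trended eBayes, and 0 with median scaling, for the 2 groups alone and with the block. The 12 are out of 38 members, among them the 8 that were not well above background on any array. The 178 genes called became 92 with normexp, 113 with median scaling, 14021 with no filter, 1 for the 2 groups alone, 270 with trended eBayes and 43 with the block. The causes of these changes were not tested. With the tamarixetin numbers crossed in the replicate block, an alternative chosen after seeing the data because of a correlation of -0.131, 58 genes and 0 members were called.

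With 1 array left out, members called lower numbered 0 to 5 for isorhamnetin, 0 to 4 between the isomers, 0 to 0 for tamarixetin and 16 to 22 for Torin1, and members higher with Torin1 0 to 3. The medians of the members ran from -0.41 to -0.33 for isorhamnetin, -0.23 to -0.08 for tamarixetin, -0.69 to -0.55 for Torin1 and -0.33 to -0.21 between the isomers. Genes called ran from 5 to 75 for isorhamnetin, 0 to 146 for tamarixetin, 7479 to 10875 for Torin1 and 39 to 272 between the isomers. A group reduced to 1 array was assumed to vary like the others. None of the 31 called results of single members changed direction in any alternative it was run in, 18 for most, 17 for Ifit3 with Torin1, which the filter to all 8 arrays leaves out, and 19 for the 2 results between the isomers. Arrays with the same replicate number deviated from their group means with correlations of -0.131 to 0.083. No pairing by number was used in the main fit, and these correlations cannot exclude one.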

Other observations

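A further list of 45 interferon-induced genes outside the effector set was counted in the same fit, 37 of them tested. With isorhamnetin and with tamarixetin 0 were called in either direction (limma), with 12 and 7 at an unadjusted p under 0.05, and between the isomers 0 were called, with 3 at an unadjusted p under 0.05. Of all 21528 genes, 3307, 3072 and 2861 had such a p in these comparisons, in the same order. With Torin1 26 fell and 4 rose, where 30.1% of all genes fell and 19.3% rose. The inducible proteasome subunits Psmb8 (-0.91), Psmb9 (-0.83) and Psmb10 (-0.72) fell, as did the peptide transporter subunits Tap1 (-0.39) and Tap2 (-0.31) and the chaperone Tapbp (-0.22), which serve peptide loading of class I molecules. The chemokine gene Cxcl10 fell by 1.13, and Ly6e, a membrane protein that restricts virus entry, fell by 0.94.

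Genes of this list that rose with Torin1 were Slfn2 (2.06) and Slfn4 (0.69), of the Schlafen family, Tor3a (0.61) and Ms4a4c (0.37). Slfn2 read 3.68 and 3.86 with Torin1 and 1.76 and 1.66 in control cells. Among sensors and regulators, Sting1 (-0.90), Ifih1 (-0.82) and Dhx58 (-1.30) fell, while Tlr7 (0.91), Nlrc5 (0.66) and Socs3 (1.00), an inhibitor of cytokine signalling, rose. Socs1 (-0.34), an inhibitor of the same family as Socs3, fell. The limma adjusted p-values of all genes named here were between 0.000104 and 0.0423.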
